A study of Rattus norvegicus with 24 samples.

Results

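The rows described here are 8 of the 35032 gene rows in a rat brain mRNA count table. They are the housekeeping and neuronal genes Ppia, Eno2, Tpi1, Mif and Atn1, and the 3 annotated copies LOC100911252, LOC100911625 and LOC100911672, whose table descriptions name them as like Ppia, gamma-enolase (Eno2) and atrophin-1 (Atn1). The members were chosen by name, as genes that were lower with electroacupuncture in the hypothalamic region of this same table and the parent genes of their copies. Each symbol had 1 row, and all 8 rows passed the filter on low counts in each of the 13 comparisons fitted. Because measured values chose them, their difference in that comparison is given as a description and supports nothing.

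Ppia encodes cyclophilin A, an abundant cytosolic peptidyl-prolyl isomerase that helps proteins fold. Eno2 encodes gamma enolase, the neuron-specific form of a glycolytic enzyme, and Tpi1 encodes triosephosphate isomerase, which interconverts the triose phosphates earlier in the same pathway. Atn1 encodes atrophin-1, a transcriptional corepressor, and Mif encodes macrophage migration inhibitory factor, a cytokine with tautomerase activity. Abundant genes of this kind often have processed copies, made when a spliced transcript is copied back into the genome, and an assembly can hold a stretch of sequence more than once. In both cases a short read from the transcript can match more than one annotated gene, so the split of counts between them depends on how a counter treats such reads. That treatment was not given in the sources used here.

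Male Sprague-Dawley rats gave libraries of the hypothalamic paraventricular nucleus (PVN) and of the central amygdala (CEA). They were bought at 7 weeks of age and adapted for 1 week, with 8 groups of 3 libraries. The NC rats had no operation. The HT rats lost about 20% of the left liver lobe under isoflurane. The EA rats (HT + EA) had the same operation plus electroacupuncture of the Zusanli (ST36) and Sanyinjiao (SP6) points for 30 min, given 24 h before and again right after surgery, and the SEA rats (HT + sham EA) had the operation and needles at those points without current. Rats of all 4 groups were restrained, and all operated rats shared the anaesthetic and the hepatectomy. The study's methods divide 12 rats among the 4 groups and say that brain samples came from different animals of a single batch. No label ties a library to a rat, so whether PVN and CEA libraries shared rats is not known, and the tests between regions treat the libraries as independent. Each library mixes the cell types of its tissue, so fewer cells of a type and less RNA per cell cannot be told apart in any value here.

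Total counts ran from 13152772 to 18607032 per library, and mitochondrial genes took 3.80% to 14.4% of them. No pair of libraries held identical values. The labels give no culture or cage and only number the replicates, so each p-value measures the spread between these 3 libraries a group. The region labels were checked on marker lists. The 6 genes of neuroendocrine PVN neurons (Avp, Oxt, Crh, Trh, Sim1 and Otp) summed to 410 to 1349 CPM in the PVN libraries and 35.2 to 179 CPM in the CEA libraries, where CPM is a count scaled to library size with the TMM factors of edgeR. Genes known from the central amygdala did not all go 1 way. In the NC and SEA libraries Ppp1r1b, Prkcd and Wfs1 were higher in the CEA, at log2 fold changes of 4.39, 1.98 and 1.76, and Nts and Dlk1 were lower, at -1.04 and -3.21 (each called by edgeR). Some CEA libraries stood apart. CEA EA replicate 2 had 3.80% mitochondrial counts against 10.1% to 14.4% in the other CEA libraries. The choroid plexus list summed to 379 CPM in CEA EA replicate 1, 1073 CPM in CEA NC replicate 2 and 1773 CPM in CEA SEA replicate 2, against 6.75 to 25.6 CPM in the other CEA libraries. A library set of the CEA EA group was left out of a network analysis in the study, and the sources used here do not say which.

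Positions are given as in the table, whose build it does not name. Ppia was listed at chr14:22706901-22707668 on the plus strand, and its gene span of 768 bases equalled its exon length of 768 bases, so the row had no intron. LOC100911252 was listed at chr4:40004654-40005148 on the plus strand, also without an intron, with 495 bases of span and of exons. The gene with introns in this family carried another name. Ppial4d, at chr14:86673775-86677443, had 779 exon bases in a span of 3669 bases, and its counts ran from 7411 to 15801 per library against 508 to 2369 for Ppia and 45 to 237 for LOC100911252. In the RefSeq gene table of the newer assembly GRCr8 the names stood the other way round. There Ppia spanned 5662 bases and Ppial4d spanned 769 bases, both on chromosome 14. Ppial4d was chosen for mention by the rule for other copies of a parent. Mif was listed at chr20:13732198-13732859 on the plus strand, with 348 exon bases in a span of 662 bases. The further cyclophilin copy Ppial4g and the Mif copy LOC103694877 held at most 0 and 2 counts in any library.

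The other copies belonged to a pair of mirrored gene blocks. On chromosome 4 the table listed 9 paired rows between 157264383 and 157331905, and on chromosome 9 it listed 9 counterparts between 20213588 and 20281195 in the reverse order and on the opposite strands. The chromosome 4 block held LOC100911672 at chr4:157267901-157274755, Eno2 at chr4:157285179-157294047 and Tpi1 at chr4:157328379-157331905, all on the minus strand. The chromosome 9 block held Atn1 at chr9:20264418-20278261 and LOC100911625 at chr9:20251521-20260505, both on the plus strand, and LOC100911515, a triosephosphate isomerase-like row, at chr9:20213588-20217176. So each block carried the named gene for some pairs and the copy for others. Eno2 had 2241 exon bases and LOC100911625 had 2357. LOC100911672 was the shorter of its pair, with 3555 exon bases against 4376 for Atn1. A pair of unnamed transcripts assembled from the reads had exactly the same lengths in both blocks, 3193 and 572 bases. In the RefSeq table of GRCr8 the genes Grcc10, Atn1, Eno2, Lrrc23, Spsb2 and Tpi1 all stood on chromosome 4, and 0 of the 6 LOC rows of the blocks had an entry there.

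**Figure D1:**
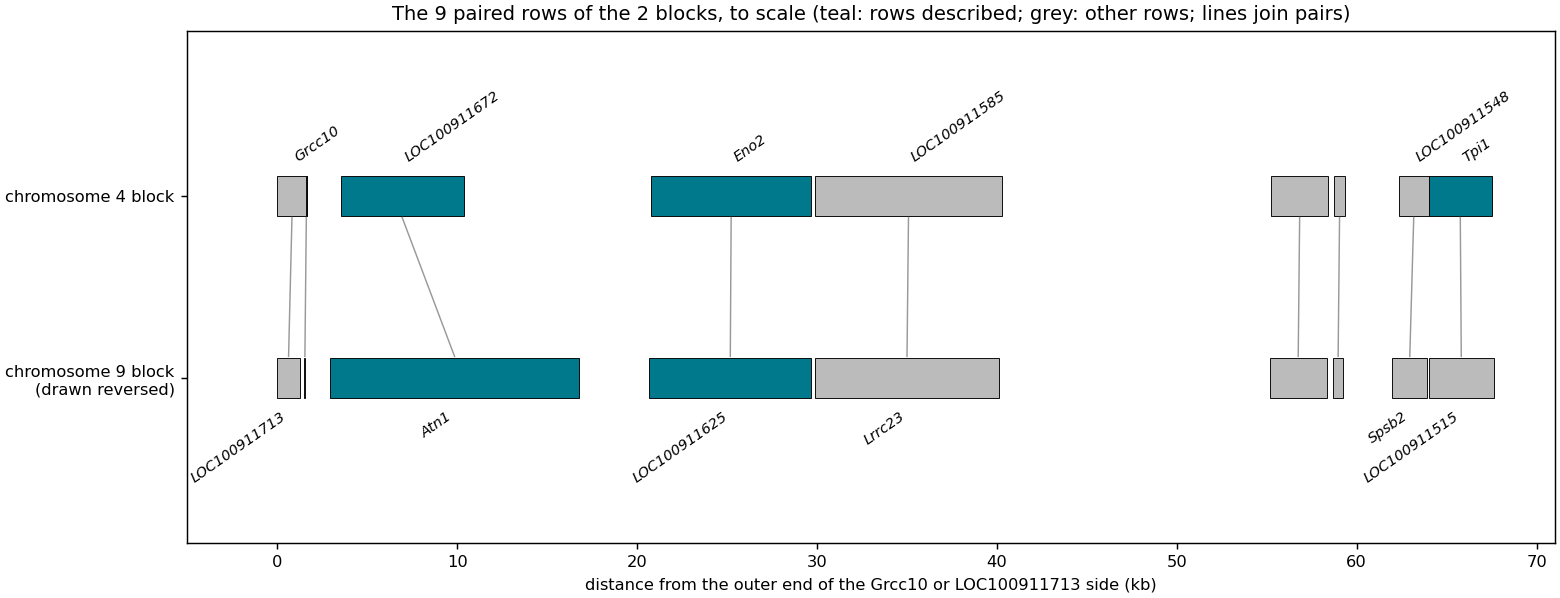
Map of the paired gene rows of the chromosome 4 and chromosome 9 blocks, drawn to scale along a horizontal axis of distance in kb from the Grcc10 or LOC100911713 end, with the chromosome 9 block reversed. Teal bars are the members, grey bars are other rows and thin lines join the 9 pairs. The pairs fall at nearly the same distance in both blocks, and Atn1 spans 13844 bases against 6855 for its counterpart LOC100911672.

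RefSeq start windows of GRCr8 were held under the names of 5 of the 8 members: Ppia, LOC100911252, Eno2, Tpi1 and Mif. By its span of 5662 bases, RefSeq Ppia is like the row named Ppial4d here (3669 bases, with introns). It is unlike the intronless member row Ppia (768 bases). LOC100911252 and RefSeq Ppia are shown because they differ up to 15 bases after the annotated start of the copy and match from there on in its window. The 60 bases before the start, read 5′ to 3′, were as follows, with any TATAA or its reverse complement TTATA in capitals.
Ppia: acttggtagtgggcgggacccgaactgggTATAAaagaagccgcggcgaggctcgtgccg
LOC100911252: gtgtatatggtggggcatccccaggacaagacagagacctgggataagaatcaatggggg
Tpi1: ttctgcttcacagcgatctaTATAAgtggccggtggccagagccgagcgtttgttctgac
They lie at chr14:85493156-85493215 and chr4:42794901-42794960 on the plus strand and chr4:159305089-159305148 on the minus strand. TATAA was found before the RefSeq gene Ppia and before Tpi1, in 2 of the 5 windows, and not before LOC100911252, Eno2 or Mif. Of all 33469 RefSeq windows 6.94% held TATAA or TTATA in these 60 bases.

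Counted along the alignment set by their longest shared run, LOC100911252 and the RefSeq gene Ppia had the same base at 78 of the 262 positions compared before that run, or 29.8%. The run itself, identical by definition, held 35 bases. It began 15 bases after the annotated start of the copy and 12 bases after that of RefSeq Ppia. It reached the end of the copy's window, which holds 50 bases after the start, so 35 bases is a minimum. The last 30 bases of the run within the window are shown with the letters ATG in capitals.
LOC100911252: tctcttttcgccgcttgctgcagacATGgt
Ppia: tctcttttcgccgcttgctgcagacATGgt
They lie at chr4:42794981-42795010 and chr14:85493233-85493262, both on the plus strand. A read lying wholly within such a stretch would match both genes. The windows belong to the RefSeq genes of these names. The Ppia window belongs to a gene like the row named Ppial4d here, so it is not taken as the start of the member row. The other windows may not be the starts of the table's rows where the spans differ. They differ for Mif, with 662 bases in the table and 24085 in RefSeq, and for LOC100911252, with 495 and 753.

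The cyclophilin A row Ppia was measured in the PVN at 53.9, 54.04 and 101.4 CPM in the NC libraries, 68.7, 63.3 and 58.7 in HT, 42.00, 37.3 and 34.6 in EA and 57.9, 55.2 and 44.9 in SEA. CEA levels of Ppia were 34.8, 143 and 62.7 CPM in the NC libraries, 40.3, 45.4 and 60.4 in HT, 54.8, 66.01 and 42.6 in EA and 57.5, 31.7 and 93.1 in SEA. All 3 PVN EA libraries lay below all 3 PVN HT libraries, but CEA NC replicates 1 and 2 alone spanned nearly the whole range of this row. The highest library, CEA NC replicate 2, was 4.50 times the lowest, CEA SEA replicate 2.

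Its copy LOC100911252 was measured in the PVN at 3.66, 9.64 and 13.3 CPM in the NC libraries, 10.4, 12.5 and 11.3 in HT, 2.84, 3.98 and 4.04 in EA and 9.66, 7.93 and 3.77 in SEA. CEA levels of LOC100911252 were 4.42, 7.77 and 11.8 CPM in the NC libraries, 9.99, 4.41 and 3.51 in HT, 10.6, 12.4 and 9.56 in EA and 9.98, 3.49 and 11.6 in SEA. The values of this copy lay either at 4.42 CPM or below, or at 7.77 CPM or above, and nothing lay between. PVN NC, PVN SEA and the CEA NC, HT and SEA groups each held libraries of both kinds, whereas the 3 PVN HT and 3 CEA EA libraries were all in the upper range and the 3 PVN EA libraries all in the lower. Of the 21 libraries outside PVN EA, 4 were at or below the highest PVN EA library.

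**Figure D2:**
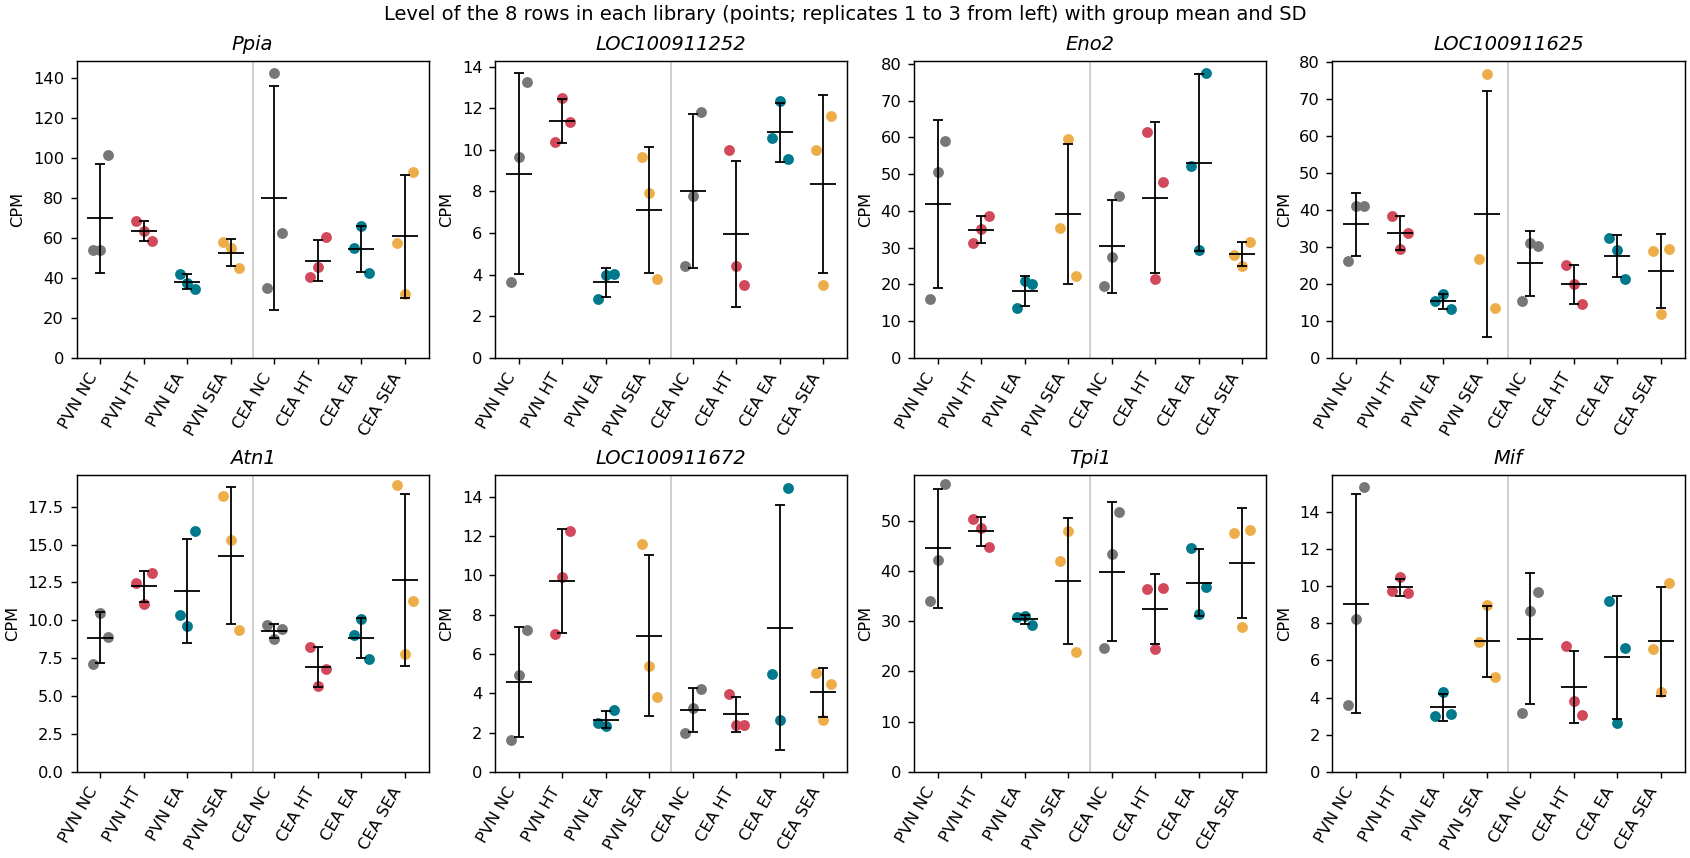
Level in CPM (vertical axis, from 0) of each of the 8 rows in the 24 libraries, grouped by region and treatment along the horizontal axis, with dots for libraries and black bars for the group mean and SD (n = 3). The PVN EA dots lie low and close together for all rows but Atn1, and the PVN HT dots lie close together for most rows, while several other groups spread over the whole range, such as LOC100911252 in PVN NC from 3.66 to 13.3 CPM.

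The gamma enolase gene Eno2 was measured in the PVN at 16.04, 50.7 and 58.9 CPM in the NC libraries, 31.2, 34.9 and 38.5 in HT, 13.4, 20.98 and 19.9 in EA and 35.4, 59.7 and 22.2 in SEA. CEA levels of Eno2 were 19.4, 27.5 and 44.1 CPM in the NC libraries, 61.6, 21.3 and 47.9 in HT, 52.1, 29.4 and 77.6 in EA and 28.1, 25.1 and 31.6 in SEA. PVN EA and PVN HT did not overlap, and CEA EA replicate 3 held the highest level of all 24 libraries. PVN NC replicate 1 lay within the range of the PVN EA libraries.

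Its copy LOC100911625 was measured in the PVN at 26.3, 41.1 and 41.2 CPM in the NC libraries, 38.5, 29.3 and 33.7 in HT, 15.5, 17.3 and 13.1 in EA and 26.6, 76.8 and 13.5 in SEA. CEA levels of LOC100911625 were 15.4, 31.01 and 30.4 CPM in the NC libraries, 25.1, 20.04 and 14.6 in HT, 32.3, 29.2 and 21.4 in EA and 28.9, 11.97 and 29.5 in SEA. PVN SEA held both the highest library of this row, replicate 2, and one of its lowest, replicate 3. The level per kb of exon was similar for the pair, with a median of 14.01 CPM per kb for Eno2 and 11.8 for LOC100911625.

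Triosephosphate isomerase Tpi1 was measured in the PVN at 33.96, 42.2 and 57.4 CPM in the NC libraries, 50.4, 48.5 and 44.7 in HT, 30.8, 31.03 and 29.3 in EA and 42.01, 47.9 and 23.8 in SEA. CEA levels of Tpi1 were 24.7, 43.3 and 51.6 CPM in the NC libraries, 36.3, 24.4 and 36.6 in HT, 44.6, 31.4 and 36.9 in EA and 47.5, 28.9 and 48.1 in SEA. The 3 PVN EA libraries differed by under 2 CPM, yet 4 of the 21 other libraries were lower than all of them. The row named as its copy, LOC100911515, was the larger of the pair, with 1333 to 3524 counts per library against 377 to 1025 for Tpi1.

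The atrophin-1 row Atn1 was measured in the PVN at 7.13, 10.5 and 8.90 CPM in the NC libraries, 12.5, 11.1 and 13.1 in HT, 10.3, 9.63 and 15.9 in EA and 18.2, 15.3 and 9.33 in SEA. CEA levels of Atn1 were 9.67, 8.79 and 9.42 CPM in the NC libraries, 8.27, 5.64 and 6.77 in HT, 9.04, 10.1 and 7.44 in EA and 18.9, 7.79 and 11.3 in SEA. It was the member whose PVN EA and PVN HT libraries overlapped. Its copy LOC100911672 was measured in the PVN at 1.64, 4.90 and 7.22 CPM in the NC libraries, 7.0, 9.90 and 12.3 in HT, 2.46, 2.35 and 3.14 in EA and 11.6, 5.37 and 3.83 in SEA. CEA levels of LOC100911672 were 1.97, 3.25 and 4.21 CPM in the NC libraries, 3.97, 2.40 and 2.40 in HT, 4.96, 2.64 and 14.4 in EA and 5.02, 2.62 and 4.48 in SEA. A single library, CEA EA replicate 3 by its title (a second header line in the table numbers it 2), held the highest level of this copy and 7.44 CPM of Atn1, below the median of that row. At these depths the lowest LOC100911672 library rested on 26 counts.

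Mif was measured in the PVN at 3.60, 8.23 and 15.3 CPM in the NC libraries, 9.71, 10.5 and 9.62 in HT, 3.03, 4.29 and 3.09 in EA and 7.01, 8.95 and 5.08 in SEA. CEA levels of Mif were 3.16, 8.67 and 9.68 CPM in the NC libraries, 6.75, 3.83 and 3.08 in HT, 9.19, 2.64 and 6.64 in EA and 6.59, 4.30 and 10.2 in SEA. As for LOC100911252, the PVN HT libraries were close together, the PVN EA libraries were low, and PVN NC held a library near each end.

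Against HT, the PVN EA libraries, which the choice of members used, were fitted lower by 1.89 on the log2 scale for LOC100911672, the largest of the 8 differences. In the quasi-likelihood test of edgeR, 6 of the 8 members were called lower at an adjusted p under 0.05, against 16 of 16641 genes tested (0.0961%). The log2 fold changes of the 6 were -1.66 ± 0.17 (SE) for LOC100911252, -1.53 ± 0.17 for Mif, -1.16 ± 0.13 for LOC100911625, -0.76 ± 0.09 for Ppia, -0.67 ± 0.07 for Tpi1 and -1.89 ± 0.24 for LOC100911672. The last of these was the member just inside the threshold, at rank 12 of all genes. Eno2, at rank 38 with -0.96 ± 0.16, was the member just outside it. Atn1 was at -0.05 ± 0.19. The groups did not overlap in 7 of the 8 members, against 11.5% of all genes tested, and 7 had an unadjusted p under 0.05 (5.67% of genes). This comparison picked the members, so these counts are what the choice fixed.

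How many members were called depended on the fit. With all 4 PVN groups in 1 fit, 0 of the 8 were called, and with the replicate number as a block 2 were called. Leaving out PVN EA replicate 1, PVN EA replicate 3, PVN HT replicate 1 or PVN HT replicate 2 left 0 called, and leaving out PVN EA replicate 2 left 1. DESeq2 called 7 of the 8. Shares of all genes beside counts of members here are those of edgeR, so the DESeq2 counts stand without a background. With each copy summed with its parent as 1 row, the log2 fold changes were -0.87 ± 0.08 for Ppia, -1.05 ± 0.10 for Eno2 and -0.60 ± 0.18 for Atn1.

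Rows of the same families and blocks that are not members were measured in that comparison too. Ppial4d, the cyclophilin A row with introns, was at 0.10 ± 0.06 on the log2 scale, and Eno1, the widely expressed alpha enolase, named after its values were seen, was at 0.03 ± 0.08. LOC100911515, the larger triosephosphate isomerase row, was at -0.73 ± 0.12, close to Tpi1. Usp5, which encodes a deubiquitinase and is the first gene past Tpi1 outside the chromosome 4 block, was at 0.01 ± 0.10. Of the other block rows, Grcc10 was at -1.48 ± 0.40, with 1.94, 2.02 and 2.05 CPM in HT and 0.694, 1.15 and 0.319 in EA, which did not overlap. Its counterpart LOC100911713 was at -0.58 ± 0.36. Lrrc23 and LOC100911585, the pair next to the enolase rows, were at 1.59 ± 0.88 and 0.58 ± 0.94, and each positive value came with 1 high EA library. Lrrc23 measured 9.27, 0.837 and 0.851 CPM in EA against 1.0 to 1.29 in HT, and LOC100911585 measured 1.58, 18.5 and 0.585 CPM in EA against 4.0 to 4.87 in HT, so the other EA libraries lay below HT for both rows.

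**Figure D3:**
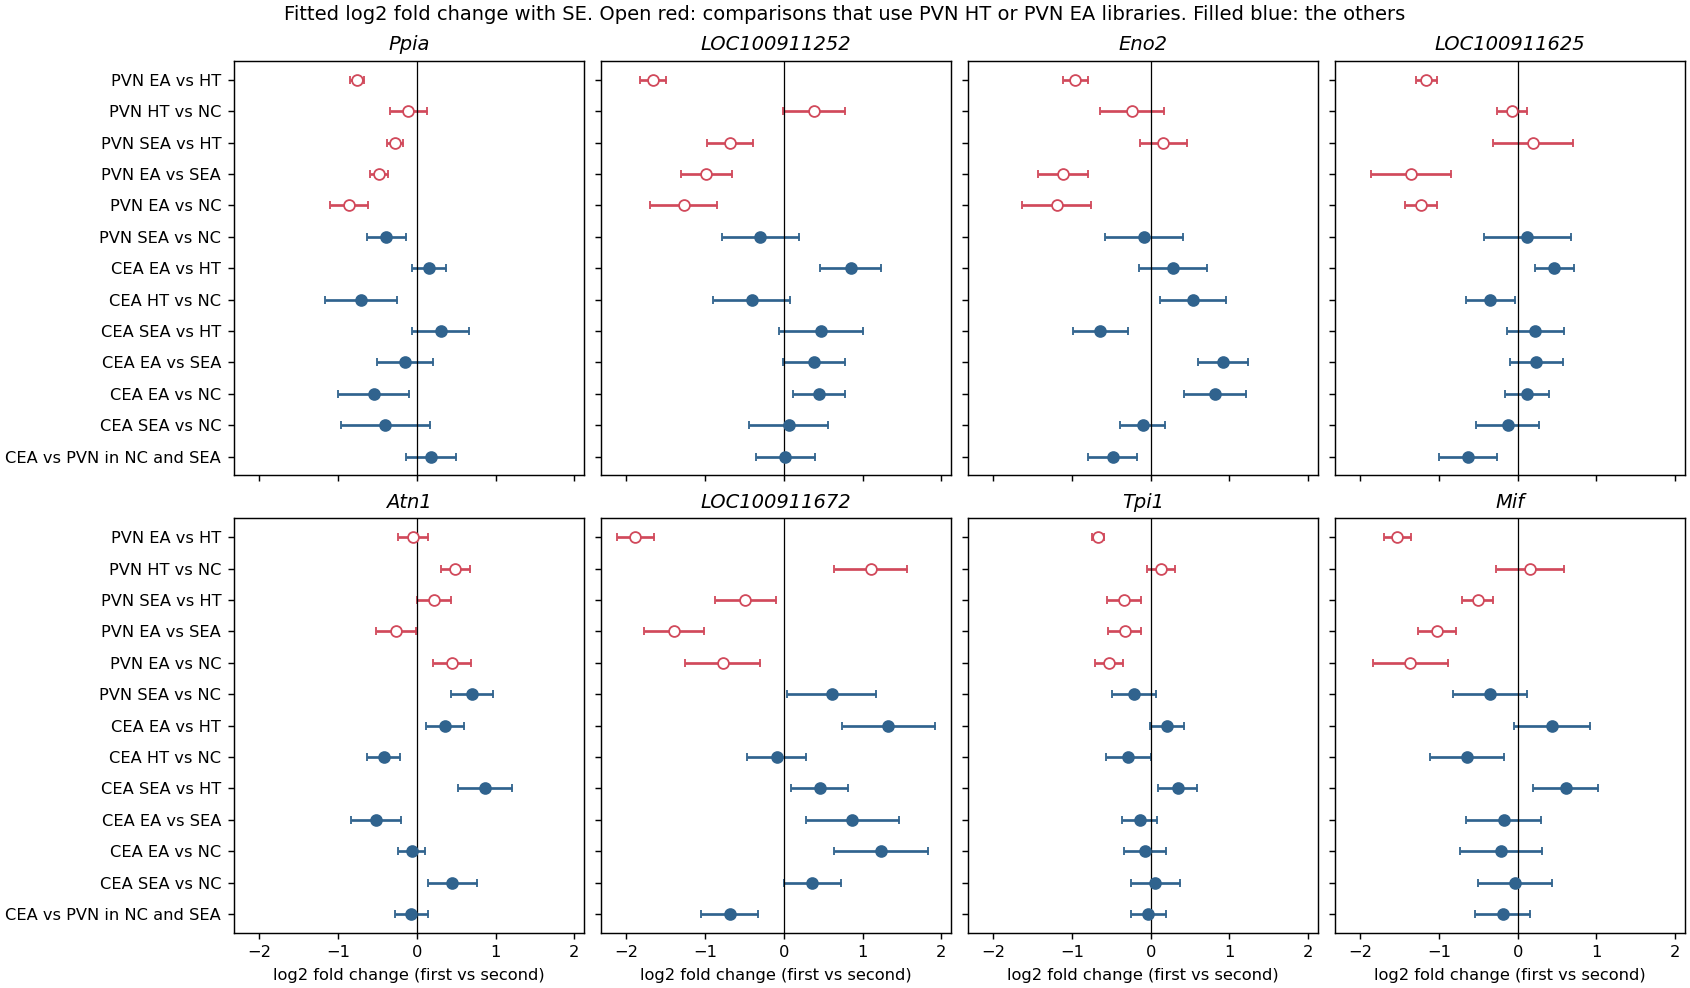
Fitted log2 fold change (horizontal axis, first group against second) of each member in the 13 comparisons (vertical axis), with bars of 1 SE. Open red points use PVN HT or PVN EA libraries, which chose the members, and filled blue points do not; the blue points scatter around 0 with no member called, and LOC100911672 reaches 1.33 in CEA EA against HT.

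The other PVN comparisons that reuse HT or EA libraries are given as values only. In EA against SEA all 8 members were below 0, with a median log2 fold change of -1.002 and a range of -1.40 to -0.27, and 0 were called by edgeR (0% of genes), 6 had an unadjusted p under 0.05 (5.21% of genes) and DESeq2 called 1, Ppia. The groups did not overlap in 4 members (10.4% of genes). In EA against NC 7 of the 8 were below 0, with a median of -1.03, and 0 were called (0.0119% of genes), 6 had an unadjusted p under 0.05 (10.1% of genes) and DESeq2 called 1, LOC100911625. There 3 members had no overlap (15.5% of genes). In HT against NC the members ran from -0.24 for Eno2 to 1.10 for LOC100911672, with 5 above 0 and a median of 0.15. edgeR called 0 there (0.012% of genes), 2 had an unadjusted p under 0.05 (11% of genes), DESeq2 called 0 and 1 had no overlap (17.1% of genes). Several marker lists had no overlap in HT against NC. The neuroendocrine PVN list summed to 410 to 936 CPM in HT and 995 to 1349 CPM in NC, with a median of -0.57 and 3 of 6 genes at an unadjusted p under 0.05. The blood list summed to 126 to 237 CPM in HT and 314 to 418 in NC, the choroid plexus list to 9.90 to 11.5 in HT and 13.7 to 17.3 in NC, and the 5 amygdala genes named above to 400.1 to 460 in HT and 320 to 374 in NC. Of the neuroendocrine, blood and choroid plexus lists edgeR and DESeq2 called 0 genes. In SEA against HT the range was -0.68 to 0.22, again with 0 called (0% of genes), 3 at an unadjusted p under 0.05 (4.38% of genes), 0 by DESeq2 and 3 without overlap (9.93% of genes). There the astrocyte list summed to 2626 to 2940 CPM in SEA and 2277 to 2607 in HT, with 0 of 6 genes called by edgeR, 1 by DESeq2 and 3 at an unadjusted p under 0.05. The choroid plexus list summed to 12.4 to 14.5 CPM in SEA and 9.90 to 11.5 in HT, and the 5 amygdala genes to 350.2 to 387 in SEA and 400.1 to 460 in HT. In EA against NC the microglia list, at 211 to 220 CPM in EA and 198 to 210 in NC, had no overlap. The part of these markers in the members' values was not tested. These comparisons share libraries with each other and with the one that chose the members, so they do not stand apart from it.

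PVN SEA against NC shares no library with the choice of members. There edgeR called 0 of the 8 (0% of genes), DESeq2 called 0, and 1 had an unadjusted p under 0.05 (12.7% of genes). The groups overlapped in each member, while 18.8% of genes had no overlap. Ppia was at -0.39 ± 0.25 (SE, adjusted p = 0.437 in the quasi-likelihood test of edgeR). LOC100911252 was at -0.30 ± 0.49 (adjusted p = 0.757). Atn1, at 0.70 ± 0.27 (adjusted p = 0.375), was farthest from 0 of the 8. The 3 SEA libraries of LOC100911625 ran from 13.5 to 76.8 CPM, and its value was 0.12 ± 0.55. The blood list summed to 206 to 275 CPM in SEA and 314 to 418 CPM in NC, with 0 of its 3 tested genes called by edgeR or DESeq2 and 1 at an unadjusted p under 0.05, and its part in these values was not tested.

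The CEA repeats the treatments in libraries that did not choose the members, and no member was called there. In CEA EA against HT all 8 members were fitted above 0, from 0.16 for Ppia to 1.33 for LOC100911672, with a median of 0.39 against -0.02 over all 16479 genes tested. None of these differences passed the test: edgeR called 0 of the 8 (0% of genes), 0 had an unadjusted p under 0.05 (3.19% of genes) and DESeq2 called 0. The groups overlapped in each member, while 9.68% of genes had no overlap. LOC100911252 was at 0.85 ± 0.39 (SE, adjusted p = 0.930, edgeR), from a mean of 5.97 ± 3.51 CPM in HT to 10.8 ± 1.42 CPM in EA (SD, n = 3). LOC100911625 was at 0.46 ± 0.25 (adjusted p = 0.930) and Eno2 at 0.28 ± 0.43 (adjusted p = 0.946). With CEA EA replicate 2 left out 7 of the 8 were above 0, from -0.0044 for Ppia to 1.73 for LOC100911672, and without CEA EA replicate 3, CEA HT replicate 2 or CEA EA replicate 1 it was 7, 7 and 8. Region markers moved in the same comparison. The 5 amygdala genes named above summed to 1740 to 2310 CPM in EA and 2716 to 3530 CPM in HT, which did not overlap, with Ppp1r1b at -0.65 ± 0.29 and Dlk1, lower in the CEA than in the PVN, at 1.12 ± 0.38. The neuroendocrine PVN list summed to 119 to 164 CPM in EA and 35.2 to 176 CPM in HT, with a median of 0.79. Of its 5 tested genes 0 were called by edgeR or DESeq2 and 1 had an unadjusted p under 0.05, Crh at 1.48 ± 0.38. The part of these markers, of the mitochondrial share and of choroid plexus transcripts in the members' values was not tested. The 1.33 ± 0.59 of LOC100911672 fell to 0.37 ± 0.44 without CEA EA replicate 3. Whether the effect differed between the regions was not tested.

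In CEA HT against NC, 7 of the 8 were below 0, with a median of -0.38 against 0.02 over all genes, and Eno2 alone was above, at 0.54 ± 0.42. edgeR and DESeq2 called 0 of the 8 (0% of genes by edgeR), and 0 had an unadjusted p under 0.05 (3.75% of genes). The groups did not overlap in 1 member, Atn1, at -0.42 ± 0.21 (10.4% of genes). Cell type markers moved in this comparison as well. The 5 microglia genes summed to 364 to 378 CPM in HT and 262 to 337 CPM in NC, with a median of 0.21, and the 6 astrocyte genes to 2237 to 2616 CPM in HT and 2788 to 3510 CPM in NC, with a median of -0.11. Neither list overlapped between the groups, edgeR and DESeq2 called 0 genes of either, and 2 of each had an unadjusted p under 0.05. Their part in the members' values was not tested. Without CEA NC replicate 2, which held choroid plexus transcripts, 2 of the 8 members were above 0 and the median was -0.21. In CEA SEA against HT 7 of the 8 were above 0, with a median of 0.40, edgeR called 0 (0% of genes), DESeq2 called 0, and 1 had an unadjusted p under 0.05 (3.07% of genes), with 0 members free of overlap (9.92% of genes). The 1 member was Atn1, at 0.87 ± 0.35 (adjusted p = 0.959, edgeR). The choroid plexus list had a median of 2.97 there, with 0 of 4 tested genes called by edgeR or DESeq2 and 2 at an unadjusted p under 0.05, and the neuroendocrine PVN list had a median of 0.71. Without CEA SEA replicate 2, which held the most choroid plexus transcripts, 7 of the 8 members were again above 0, with a median of 0.66. CEA EA against SEA, EA against NC and SEA against NC had 4 members on each side of 0. edgeR called 0 of 16322, 1 of 16505 (0.00606%) and 0 of 16423 genes in these 3 comparisons, and no member. At an unadjusted p under 0.05 stood 1, 0 and 0 members (1.99%, 4.42% and 2.47% of genes), and DESeq2 called 0 members in each. Each member's groups overlapped in all 3, while 6.81%, 10.3% and 6.95% of genes had none. In EA against NC the 5 amygdala genes summed to 1740 to 2310 CPM in EA and 2434 to 3050.4 CPM in NC, which did not overlap, and their part was not tested. The 1 member at an unadjusted p under 0.05 was Eno2 in EA against SEA, at 0.91 ± 0.32 (adjusted p = 0.9999, edgeR).

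Between regions, in the NC and SEA libraries with treatment as a term, 0 of the 8 members were called by edgeR, whereas 7693 of 17265 genes were (44.6%). DESeq2 called 0 members, 0 had an unadjusted p under 0.05 (51.8% of genes) and 0 were free of overlap (26.5% of genes). LOC100911672 was lowest in the CEA relative to the PVN, at -0.68 ± 0.36 (SE, adjusted p = 0.144, edgeR), and passed when PVN NC replicate 1 was left out (-0.87 ± 0.30, adjusted p = 0.0377). LOC100911625 was at -0.63 ± 0.37 (adjusted p = 0.187) and Eno2 at -0.48 ± 0.31 (adjusted p = 0.230). Ppia, LOC100911252, Tpi1, Mif and Atn1 lay between -0.19 and 0.18. A miss of the threshold does not show equal levels, because the SE of 0.22 to 0.37 for these rows are wide.

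The copy's share of the summed counts of copy and parent compares the pair within a library and needs no scaling between libraries. For LOC100911252 with Ppia it ran from 5.16% (95% Wilson interval 4.36 to 6.10) in CEA NC replicate 2 to 19.9% (17.2 to 22.9) in CEA HT replicate 1, with a median of 12.1%. For LOC100911625 with Eno2 it ran from 21.6% (19.7 to 23.6) in CEA EA replicate 3 to 62.1% (58.4 to 65.7) in PVN NC replicate 1, with a median of 45.0%, and the copy exceeded the named gene in 6 of 24 libraries. For LOC100911672 with Atn1 the lowest share was 16.5% (13 to 20.7) in PVN EA replicate 3 and the highest was 66.0% (61.1 to 70.5) in CEA EA replicate 3, around a median of 28.8%. The variance of the share between libraries was 18.5, 47.6 and 20.3 times what binomial sampling of the reads gives for these 3 pairs. Without molecular identifiers on the reads, these intervals hold for counting error alone.

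**Figure D4:**
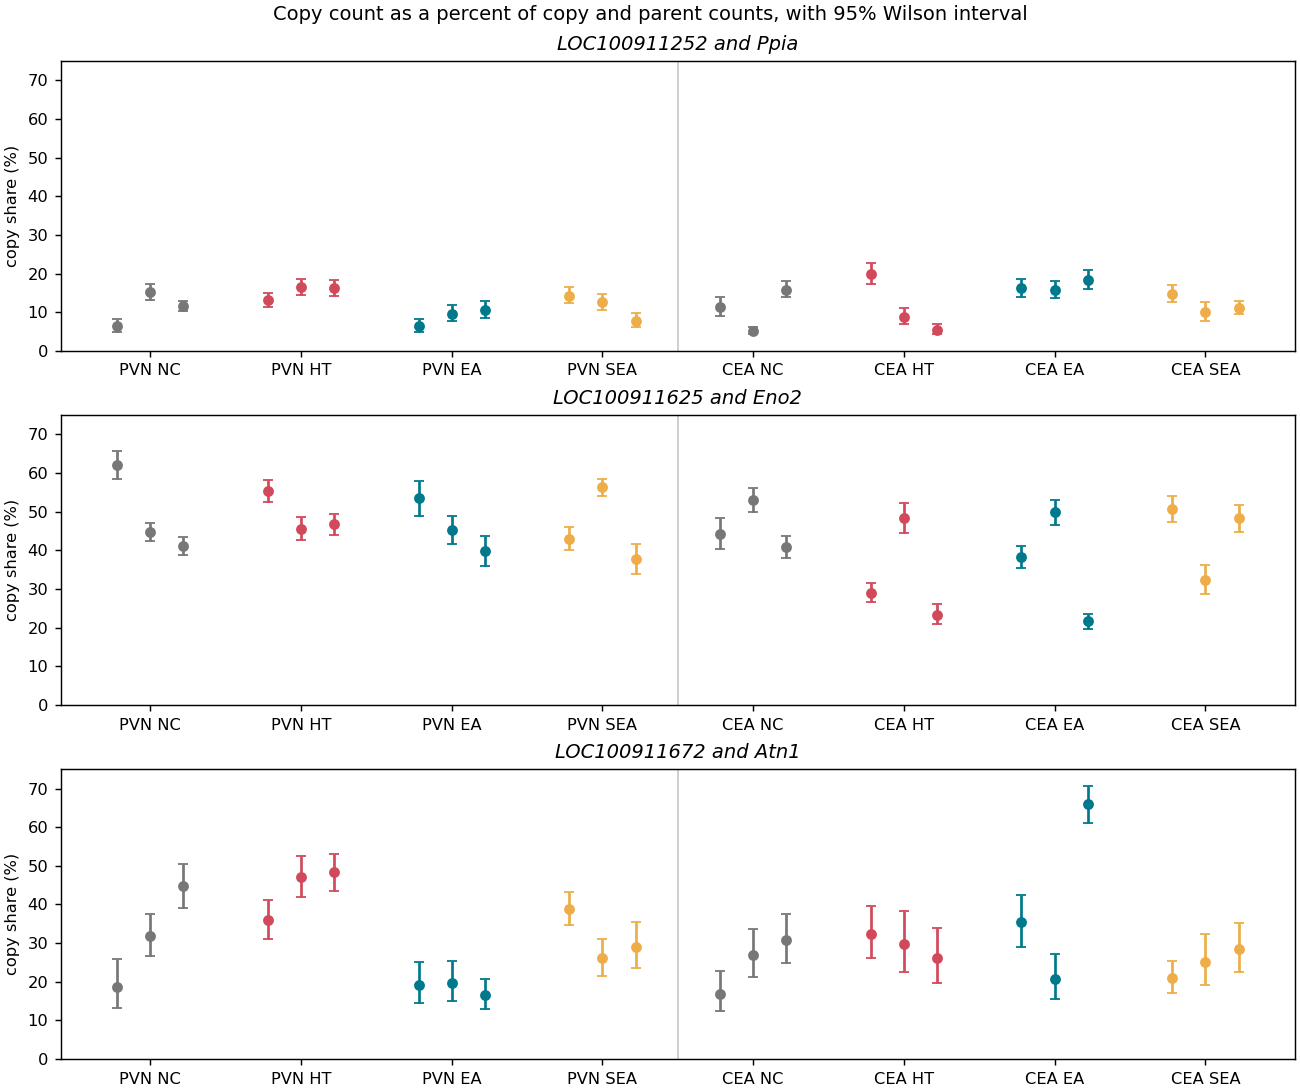
Copy count as a percent of copy and parent counts (vertical axis) in each library, by group, for the 3 pairs, with 95% Wilson intervals as bars. Neighbouring replicates of a group often have intervals that do not overlap, as in CEA EA for LOC100911625, where the shares were 38.3%, 49.8% and 21.6%.

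By group, the share of LOC100911252 was 15.2% ± 1.86 in PVN HT and 8.81% ± 2.19 in PVN EA (SD, n = 3), and that of LOC100911672 was 43.8% ± 6.81 and 18.4% ± 1.72. The share of LOC100911625 was 49.2% ± 5.28 in PVN HT and 46.1% ± 6.94 in PVN EA, where parent and copy were both lower. The PVN values of HT and EA follow from the choice of members and carry no test. The ratio was tested between regions in the NC and SEA libraries by an exact two-sided permutation over 400 arrangements. The log2 ratio of copy to parent differed between CEA and PVN by -0.01 for LOC100911252 (exact p = 0.990), by -0.16 for LOC100911625 (exact p = 0.610) and by -0.45 for LOC100911672 (exact p = 0.165). Adjusted over the 3 copies these were 0.990, 0.915 and 0.495. A further 21 tests between treatment groups outside PVN HT and EA, each of 3 against 3 libraries with a smallest possible exact p of 0.10, gave an adjusted p of 0.933 at the lowest. That smallest p was met once, by LOC100911252 in CEA EA against SEA, with a log2 ratio difference of 0.58.

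Which row is taken as the parent changes the share, as pairs added after the values were seen show. LOC100911252 was 0.387% to 1.94% of the counts it shared with Ppial4d, and Ppia was 4.84% to 19.1% of those it shared with Ppial4d. LOC100911515 was 68.5% to 89.5% of the counts it shared with Tpi1, and exceeded Tpi1 in 24 of 24 libraries. In this annotation the row named as the gene therefore held the smaller part of the triosephosphate isomerase counts, and Ppia held the smaller part of the cyclophilin A counts.

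Copy and parent were then compared over the 12 CEA libraries, which did not choose the members. Pearson's r of log2 CPM was 0.42 for LOC100911252 with Ppia (permutation p = 0.173, Spearman's rho 0.51, p = 0.095). For LOC100911625 with Eno2 r was 0.23 (permutation p = 0.468, rho 0.29, p = 0.368), and for LOC100911672 with Atn1 r was 0.17 (permutation p = 0.549, rho 0.34, p = 0.287). Adjusted over the 3 copies, r had p = 0.518, 0.549 and 0.549, and rho had p = 0.286, 0.368 and 0.368. Without the 2 libraries farthest from the median of the parent, r was 0.43, 0.34 and -0.16. Within treatment groups, as deviations from the 4 group means, r was 0.46, 0.21 and 0.09. None of the 3 copies was shown to follow its parent. Leaving out CEA EA replicate 3 moved r of LOC100911672 with Atn1 to 0.58 (unadjusted permutation p = 0.0493). In the PVN, where the choice of members enters, r was 0.80, 0.83 and 0.54, as a description.

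**Figure D5:**
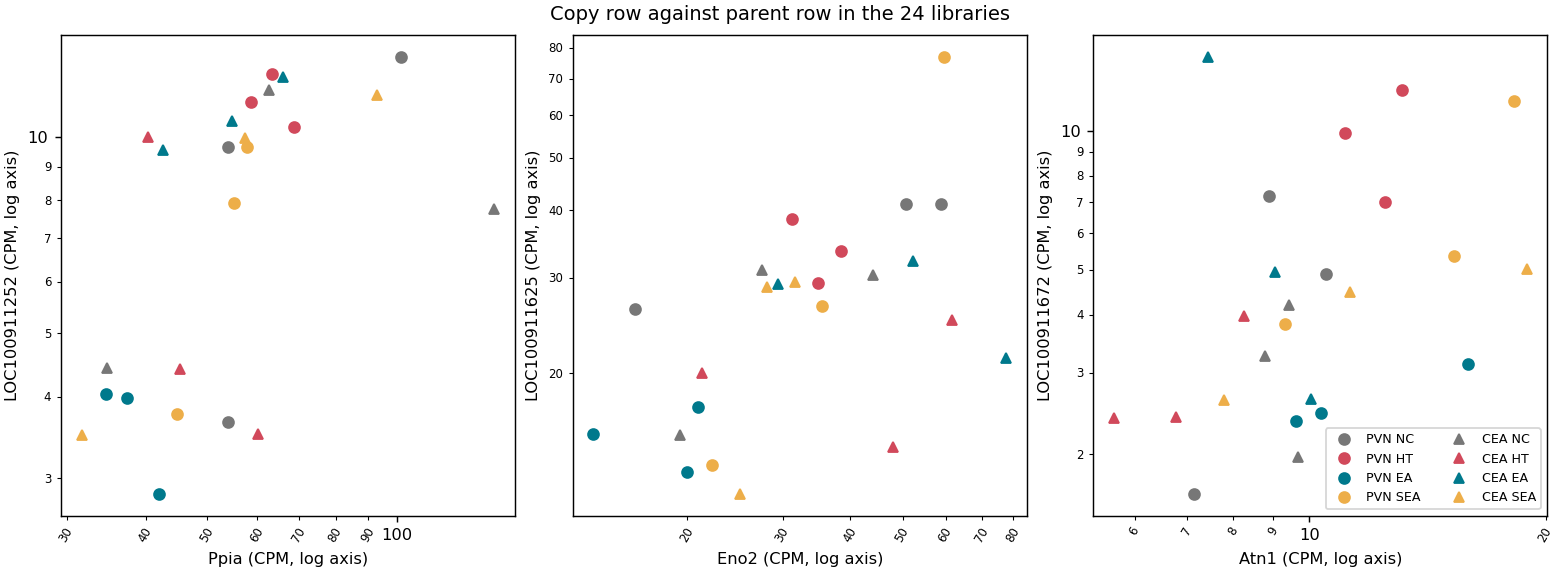
Level of each copy (vertical log axis, CPM) against its parent (horizontal log axis, CPM) in the 24 libraries, circles for PVN and triangles for CEA, coloured by treatment. The PVN circles rise together for LOC100911252 with Ppia and LOC100911625 with Eno2, the CEA triangles are looser, and LOC100911252 splits into points at 4.42 CPM or below and at 7.77 CPM or above.

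Members of different families were set against each other in the same way. Of the 28 pairs of members over the 12 CEA libraries, 26 had a positive r, with a median of 0.49. Adjusted over the 28 pairs, 2 passed on Pearson's r and 0 on Spearman's rho. They were LOC100911252 with LOC100911625 (r = 0.90, permutation p adjusted 0.00784, rho 0.76) and Mif with Tpi1 (r = 0.81, permutation p adjusted 0.02996, rho 0.76). Without the 2 farthest libraries these were 0.81 and 0.94, and within treatment groups 0.91 and 0.79. Without CEA EA replicate 2 they were 0.90 and 0.83. LOC100911252 lies outside the blocks and is like a different gene, and its r with LOC100911625 stood at rank 22 of the 17767 other genes passing the filter, against rank 2233 for its r with Ppia. In the PVN the median r of the 28 pairs was 0.74, as a description.

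The genes most like each copy over the CEA libraries included several rows without a gene name or described as like another gene. For LOC100911252 they were AABR07048992.1 (r = 0.97 over 12 libraries, 0.95 in the PVN), Ppp2ca, a catalytic subunit of protein phosphatase 2A (0.97 and 0.79), AC112062.1 (0.96 and 0.89), AABR07011951.1 (0.95 and 0.95) and LOC688655, described as similar to heat shock protein 8 (0.95 and 0.90). For LOC100911625 they were LOC100360449, a ribosomal protein L9-like row (0.96 and 0.85), AABR07044711.1 (0.95 and 0.75) and a separate assembled transcript without a name (0.95 and 0.73). The others were AABR07011951.1 (0.95 and 0.75) and LOC103692829, a ribosomal protein L9 pseudogene (0.94 and 0.83). For LOC100911672 they were LOC688442, described as similar to limkain b1 (0.90 and 0.81), AABR07050545.1, a ribosomal protein S7-like row (0.86 and 0.25), Lama1, a laminin subunit (0.81 and -0.20), Nxf3 (0.81 and -0.34) and Dcun1d2 (0.80 and 0.40). Of the genes leading for the parents, chosen for mention after their values were seen, Kif26a, a kinesin family gene, stood first for Ppia (0.96 and 0.09) and Tnfsf4, a cytokine of the TNF family, first for Eno2 (0.96 and -0.32). These are the highest of 17767 values over 12 libraries that share depth and tissue, and nothing further is read from them.

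Spread between replicates was large for these rows. The within-group SD of log2 CPM was 0.52 for Ppia, 0.66 for LOC100911252, 0.63 for Eno2, 0.60 for LOC100911625, 0.67 for Mif, 0.72 for LOC100911672, 0.37 for Tpi1 and 0.36 for Atn1. Among genes of like level (within 0.5 on the log2 scale) these stood at percentiles 97.9, 94.2, 98.6, 98.1, 94.2, 93.5, 92.2 and 79.0. Of their abundant relatives, LOC100911515 had 0.31 (percentile 90.0), close to Tpi1, while Ppial4d had 0.20 (percentile 63.0) and Eno1, named after its values were seen, had 0.19 (percentile 57.9). The neighbour Usp5 was at 0.15 (percentile 45.2). PVN libraries entered this measure, so it is a description.

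In PVN EA against HT no gene of the wider pathways was called beside the members. Of the 43 tested genes of 4 lists edgeR called 3 and DESeq2 called 4, all of them members, and 5 had an unadjusted p under 0.05 (11.6%): Tpi1, Eno2, Ppia, Mif and the cyclophilin Ppid, at 0.14 ± 0.06. In that comparison, where 0.0961% of all genes were called and 5.67% had an unadjusted p under 0.05, 1 of 18 glycolysis genes was called, the member Tpi1, 2 had an unadjusted p under 0.05, and the list's median log2 fold change was -0.04. Of 17 cyclophilins 1 was called, the member Ppia, and 2 had an unadjusted p under 0.05, with a list median of 0.03. Of the 6 tested genes among 7 of the MIF family and its receptors 1 was called, the member Mif, also the 1 gene at an unadjusted p under 0.05, with a list median of -0.04, and Cxcr2 was at 0 in the median library. Of the atrophins Atn1 and Rere 0 were called. In PVN SEA against NC and in each of the 6 CEA comparisons, edgeR and DESeq2 called 0 of the 43 tested genes of these 4 lists. At an unadjusted p under 0.05 stood 5 of the 43 in PVN SEA against NC (12.7% of all genes). In the CEA there were 2 in HT against NC (3.75%), 0 in EA against HT (3.19%), 2 in SEA against HT (3.07%), 1 in EA against SEA (1.99%), 0 in EA against NC (4.42%) and 1 in SEA against NC (2.47%). The neuron list, whose cells express Eno2, had 0 of 8 genes called by edgeR or DESeq2 in PVN EA against HT, 0 at an unadjusted p under 0.05, and summed to 4347 to 4479 CPM in EA and 4421 to 4656 CPM in HT, with no marker at 0 in the median library. The choroid plexus list summed to 9.90 to 11.5 CPM in PVN HT and 13.9 to 16.2 in PVN EA, 0 of its 4 tested genes were called by edgeR or DESeq2, 2 had an unadjusted p under 0.05, the median was 0.56, and its part in the members' values was not tested. The PVN neuroendocrine list ran from 410 to 936 CPM in PVN HT and from 895 to 1114 CPM in PVN EA, ranges that overlap. Of its 6 genes 0 were called by edgeR or DESeq2, 3 had an unadjusted p under 0.05, the median was 0.44, and its part in the members' values was not tested.

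Between regions edgeR and DESeq2 each called 15 of the 43 genes of these 4 lists (34.9%), against 44.6% of all genes by edgeR, so the lists held no more calls than the background. In the CEA, glycolysis rose in 2 genes and fell in 4 of 18, among them Ldhb at 0.41, Hk2 at 0.36, Pfkl, the liver-type phosphofructokinase, at -0.70, Hk1, the main brain hexokinase, at -0.44 and Ldha at -0.52. The cyclophilins also rose in 2 and fell in 4 of 17, including Cwc27 at 0.42, Ppib, the cyclophilin of the secretory pathway, at 0.24, Ppid at -0.55, Ppil1 at -0.58 and Ppil2 at -0.39. Ddt, the closest relative of Mif, was higher in the CEA at 0.33, and the MIF receptor Cxcr4 was lower at -0.65. Rere, the relative of Atn1, was lower at -0.34. All of these had an adjusted p under 0.05 in the quasi-likelihood test of edgeR, where 21.3% of genes rose and 23.3% fell. Markers of other cell types also differed between the regions. The myelin genes Mag, Mog and Mobp were called higher in the CEA by edgeR, at 1.19, 1.15 and 1.43, and summed to 841 to 1528 CPM in the PVN and 2418 to 3930 CPM in the CEA. Of the 8 neuron genes 4 were called higher and 3 lower, with a median of 0.14. The 5 microglia genes were all called higher in the CEA, with a median of 0.53 and a summed level of 191 to 257 CPM in the PVN and 262 to 367 CPM in the CEA. Both tested endothelium genes were called higher, with a median of 0.62 and summed levels of 115 to 153 CPM in the PVN and 185 to 231 CPM in the CEA, and the defining marker Cldn5 was at 0 in the median library. Their part in the values of the lists and of the members was not tested.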

How the data were processed

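Messenger RNA was sequenced from 24 libraries, 3 for each of 4 treatments in 2 regions. The authors deposited 1 table of raw counts per gene, made per the labels and the study's methods with HISAT2 alignment and featureCounts (versions not given in the sources used here). The methods name mRatBN7.2, the labels' tool list names a human build, and the largest gene end on chromosome 1 in the table is 282724300, so coordinates are given as in the table, with no build named. How multi-mapping reads were counted was not given. A stray second header line was left out; it exchanges replicates 2 and 3 of CEA EA against the first header, which matches the sample titles and was followed. The table had 35032 rows, 2149 of them without an Ensembl ID, and 0 columns of samples went unused.

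Each pair of groups was fitted with edgeR 4.0.16 in R 4.3.3 (filterByExpr, TMM, quasi-likelihood test, Benjamini-Hochberg over all genes tested, threshold 0.05). Levels are TMM-scaled CPM. Alternatives were DESeq2 1.42.0, RLE size factors, no filter, all groups of a region in 1 fit, a replicate block, copies summed with parents, and each library left out. Ratios used a pseudocount of 0.5 and log2 CPM a prior count of 2. Permutation tests (100000 resamples for correlations) and 95% Wilson intervals used Python 3.11.15 and scipy 1.17.1. Total counts of 13152772 to 18607032 per library set the precision, and intervals cover counting error only. On simulated counts for CEA EA against HT (16479 genes, 200 changed 4-fold) the test recovered 100% of the changed genes and called 9 unchanged ones. The simulation gave all genes the same dispersion and changed only genes of higher count. The members' spread between replicates stood at percentiles 79.0 to 98.6 of genes of like level, so this recovery does not measure the power for the members.

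The members and lists were chosen with earlier results of these data known. Some of the lists and genes are not reported here. Named genes were all members, other annotated copies of their parents, neighbours within 100 kb, genes called in the lists (up to 3 per direction), and for each copy the 5 genes of highest r in the CEA. Genes named outside this rule are marked as named after their values were seen. Samples were grouped by their titles. Same-numbered samples deviated together in CEA HT against NC (correlations 0.24, 0.18 and 0.29), but no label pairs them. The replicate block called 0 members there, as did the fit without it. In the other comparisons of 2 groups at least 1 correlation was under 0.1.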

Additional observations from a re-analysis of the deposited data

How the results depend on the processing

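In PVN EA against HT, 6 members were called. All 4 PVN groups in 1 fit gave 0, the replicate block gave 2 (LOC100911252 and Ppia), and leaving out 1 library gave 0 to 6: 0 without EA replicate 1, EA replicate 3, HT replicate 1 or HT replicate 2, 1 without EA replicate 2 and 6 without HT replicate 3. The replicate block changed no call in the other comparisons, where it gave 0 members called. No label pairs same-numbered samples in any comparison. DESeq2 called 1 member in PVN EA against SEA and 1 in PVN EA against NC, where edgeR called 0. Leaving out PVN NC replicate 2 gave 1 call in PVN HT against NC (range 0 to 1) and 2 in PVN EA against NC (range 0 to 2). Leaving out PVN NC replicate 1 gave 1 call between regions (range 0 to 1). In PVN SEA against NC and the 6 CEA comparisons, each alternative run gave 0 members called.

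The CEA minus PVN log2 ratio ranged, with 1 library left out, from -0.20 to 0.25 for LOC100911252 to Ppia (sign changed in 7 of 12 cases), from -0.28 to 0.029 for LOC100911625 to Eno2 (2 cases) and from -0.69 to -0.24 for LOC100911672 to Atn1, with an unadjusted exact p of 0.040 without PVN NC replicate 1. The CEA correlation of copy and parent ranged from 0.27 to 0.57, from 0.08 to 0.36 and from 0.054 to 0.58 in the same order, the last value without CEA EA replicate 3. The cause was not tested in any of these. The pairs LOC100911515 with Tpi1, LOC100911252 with Ppial4d and Ppia with Ppial4d were added after seeing the data, as were the signs of the members without single CEA libraries and the member correlations without CEA EA replicate 2. Low rows such as LOC100911672 rest on few counts.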

Other observations

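RGD1563601, a processed Tpi1 pseudogene row chosen after its values were seen, was at 0.665 ± 0.258 CPM in PVN EA and 1.76 ± 0.434 CPM in CEA EA (SD, n = 3). The other 6 group means were 10.3 to 15.1 CPM, but each of those groups also held a library at 1.30 to 2.51 CPM, such as PVN HT replicate 3 at 1.76 CPM and CEA NC replicate 2 at 1.63 CPM, so a low level was not particular to EA. Over the 24 libraries it ran from 0.471 CPM in PVN EA replicate 2 to 25.7 CPM in PVN HT replicate 2, and its within-group SD of log2 CPM was 1.57. LOC100911713, the counterpart of Grcc10 in the chromosome 9 block, held 894 counts (53.8 CPM) in CEA NC replicate 2. LOC100911585, the counterpart of Lrrc23, was at 18.5 CPM in PVN EA replicate 2 and at 0.185 CPM in CEA HT replicate 3.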
